A study of Mus musculus with 6 samples.

Results

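The 10 genes described here encode amino acid transporters of the plasma membrane, measured in mouse leukaemia cells of the B lineage (B-ALL, B-cell acute lymphoblastic leukaemia) after dihydroartemisinin (DHA) or its vehicle. They were chosen by symbol, 10 of 22180 genes with a probe set of their own on the array, with earlier results of the same comparison known. Each gene is represented by its brightest probe set, and the values that informed the choice are therefore given as a description. Limma adjusted p-values over all genes are printed only to say on which side of the threshold a gene lay, and nothing is supported with them.

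The cells carry the BCR-ABL oncogene, the fusion kinase that drives this leukaemia. In the DHA group (3 arrays) they received 312 nM DHA, the active metabolite of the artemisinin antimalarials, for 4 h, and in the vehicle group (3 arrays) dimethyl sulphoxide (DMSO) for the same time. The extraction protocol also names 2 h. The growth protocol lists p185+ cells and p185T315I+ cells, Arf-/- or p53-/-, T315I being a kinase mutation, and does not say which of them these arrays hold or how many clones they stand for. All cells grew in RPMI, to which 2 mM glutamine, 55 µM 2-mercaptoethanol and fetal bovine serum at 10% were added. No label states that the arrays of a group came from separate cultures, and the spread between them may be technical.

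Values are log2 intensities, so a difference of 1 is a doubling of signal. Array medians lay between 5.25 and 5.31 and correlations between arrays between 0.9925 and 0.9947. B-cell precursor genes were present, among them Igll1 (mean of the 6 arrays 12.98), Cd79a (12.71) and Pax5 (10.90), whereas Vpreb1 lay at 4.78, close to the filter on dim genes at 4.52. The mean of the 9 T and NK cell markers was 4.48 to 4.52 with vehicle and 4.44 to 4.55 with DHA, and that of the 11 myeloid markers 4.77 to 4.85 and 4.81 to 4.84. For the 8 stromal and endothelial markers it was 5.62 to 5.70 and 5.67 to 5.74. The 4 erythroid and megakaryocyte markers on the array averaged 5.09 to 5.14 with vehicle and 5.15 to 5.20 with DHA, a small shift without overlap whose part in the results was not tested. None of these markers was called. In such bulk RNA, a change in the RNA of each cell and a change in the share of cells that hold it cannot be told apart.

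Amino acids cross the plasma membrane through families of solute carriers. Some, such as the SLC38 proteins, take up neutral amino acids together with sodium. Exchangers, such as the SLC1 proteins ASCT1 and ASCT2 and the heterodimers of the SLC3 and SLC7 families, trade an amino acid inside the cell for one outside. Leucine entering through such heterodimers feeds mTORC1, the kinase complex that ties growth to nutrients. When amino acids run short or the kinases of eIF2α are otherwise active, the transcription factor ATF4 binds C/EBP-ATF response elements and many transporter genes are its known targets.

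Promoter windows from RefSeq (GRCm38.p6, 250 bases before to 50 after the start of transcription) were found for 6 of the 10 genes, 8 windows in all. They are Slc1a4, Slc3a2, Slc7a1, Slc7a6, Slc38a2 and Slc43a1. The windows were searched on both strands for TGATGNAA, the core of the C/EBP-ATF response element, for TTGCATCA, one form of it, for the E-box CACGTG and for the cyclic AMP response element TGACGTCA. Windows of 3 genes are shown: Slc1a4 (chr11:20332664-20332963, minus strand), the one with the response element, Slc3a2 (chr19:8713848-8714147, minus strand), the shared heavy chain, which had no match, and Slc43a1 (chr2:84840073-84840372, plus strand), the one with an E-box. Each is printed 5′ to 3′ on the strand of its gene, and capitals mark the matched letters.
Slc1a4: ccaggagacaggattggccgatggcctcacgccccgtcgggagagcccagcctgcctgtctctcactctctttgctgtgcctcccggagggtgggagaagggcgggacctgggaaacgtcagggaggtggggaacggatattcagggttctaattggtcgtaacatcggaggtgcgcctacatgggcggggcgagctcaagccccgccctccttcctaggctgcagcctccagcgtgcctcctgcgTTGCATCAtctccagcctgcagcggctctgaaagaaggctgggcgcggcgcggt
Slc3a2: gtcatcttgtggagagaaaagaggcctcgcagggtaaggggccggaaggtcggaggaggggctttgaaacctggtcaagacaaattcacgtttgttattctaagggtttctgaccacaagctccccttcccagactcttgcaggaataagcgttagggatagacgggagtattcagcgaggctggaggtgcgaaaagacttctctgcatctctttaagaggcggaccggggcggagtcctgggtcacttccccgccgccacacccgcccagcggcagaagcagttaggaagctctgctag
Slc43a1: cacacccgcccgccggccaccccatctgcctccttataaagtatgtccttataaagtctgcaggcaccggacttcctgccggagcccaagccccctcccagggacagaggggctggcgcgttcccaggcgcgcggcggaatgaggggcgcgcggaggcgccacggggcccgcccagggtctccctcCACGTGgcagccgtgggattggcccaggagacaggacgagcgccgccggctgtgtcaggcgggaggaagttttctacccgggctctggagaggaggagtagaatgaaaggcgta

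In Slc1a4 the capitals begin 4 bases before the start of transcription and run across it. The same letters satisfy TTGCATCA on the gene's strand and TGATGNAA on the other, so the matches overlap fully and count as 1 place. TGATGNAA was in 3.97% and TTGCATCA in 0.895% of 32851 windows of the same length. The E-box of Slc43a1 begins 64 bases before the start, and 7.15% of windows hold one. TGACGTCA was in none of the 8 windows and in 1.79% of all. The share of G and C ran from 51.7% in a window of Slc7a1 to 76.7% in one of Slc7a6, and its median over all windows was 52.67%. A match is a description of letters in this window, and its absence says nothing of elements elsewhere in the gene.

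Slc1a4 was the member that differed most between the groups. It encodes ASCT1, an exchanger of alanine, serine, cysteine and threonine. Its log2 intensity was 8.84, 8.70 and 8.52 on the vehicle arrays and 10.06, 9.79 and 9.91 on the DHA arrays. Every DHA array was above every vehicle array, and the lowest DHA value exceeded the highest vehicle value by 0.95. The gene rose from 8.69 ± 0.16 to 9.92 ± 0.14 (mean ± SD of 3 arrays each), a 2.35-fold difference (95% interval 1.99 to 2.78). On the log2 scale this is 1.23 (SE 0.10; limma adjusted p = 0.0234), the 10th largest positive value among 15526 tested genes. The call was lost when any vehicle array was left out (limma adjusted p = 0.0822, 0.239 and 0.116 for arrays 1 to 3) and without DHA replicate 1 (0.280) or 3 (0.289), while it held without DHA replicate 2 (0.0385). The log2 difference itself stayed between 1.15 and 1.31 over these. In each of these fits where Slc1a4 lost its call, limma called 0 of 15526 genes.

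Slc1a5 encodes ASCT2, the closest relative of ASCT1 among the members and a major route of glutamine into proliferating cells. Its brighter probe set measured 11.76, 11.57 and 11.81 with vehicle and 11.98, 11.94 and 11.76 with DHA. The groups overlapped, since DHA replicate 3 lay below 2 vehicle arrays. The difference on the log2 scale was 0.18, with a 95% interval of -0.030 to 0.38. The dimmer probe set measured 7.68, 7.18 and 7.64 with vehicle and 7.89, 7.61 and 8.03 with DHA, a difference of 0.34 with overlap as well. Both probe sets thus lay on the same side, and neither passed the test over all probe sets (limma adjusted p = 0.646 and 0.635), in which 0.0112% were called. With all 6 arrays, Slc1a4 did not pass that test either (limma adjusted p = 0.0649). Slc1a5 was the only member with a second probe set. Within each array, the log2 value of Slc1a4 minus that of Slc1a5 was -3.03 ± 0.22 with vehicle and -1.97 ± 0.16 with DHA (mean ± SD of 3 arrays each). The change of Slc1a4 beyond that of Slc1a5 was 1.05, and the groups did not overlap.

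**Figure D1:**
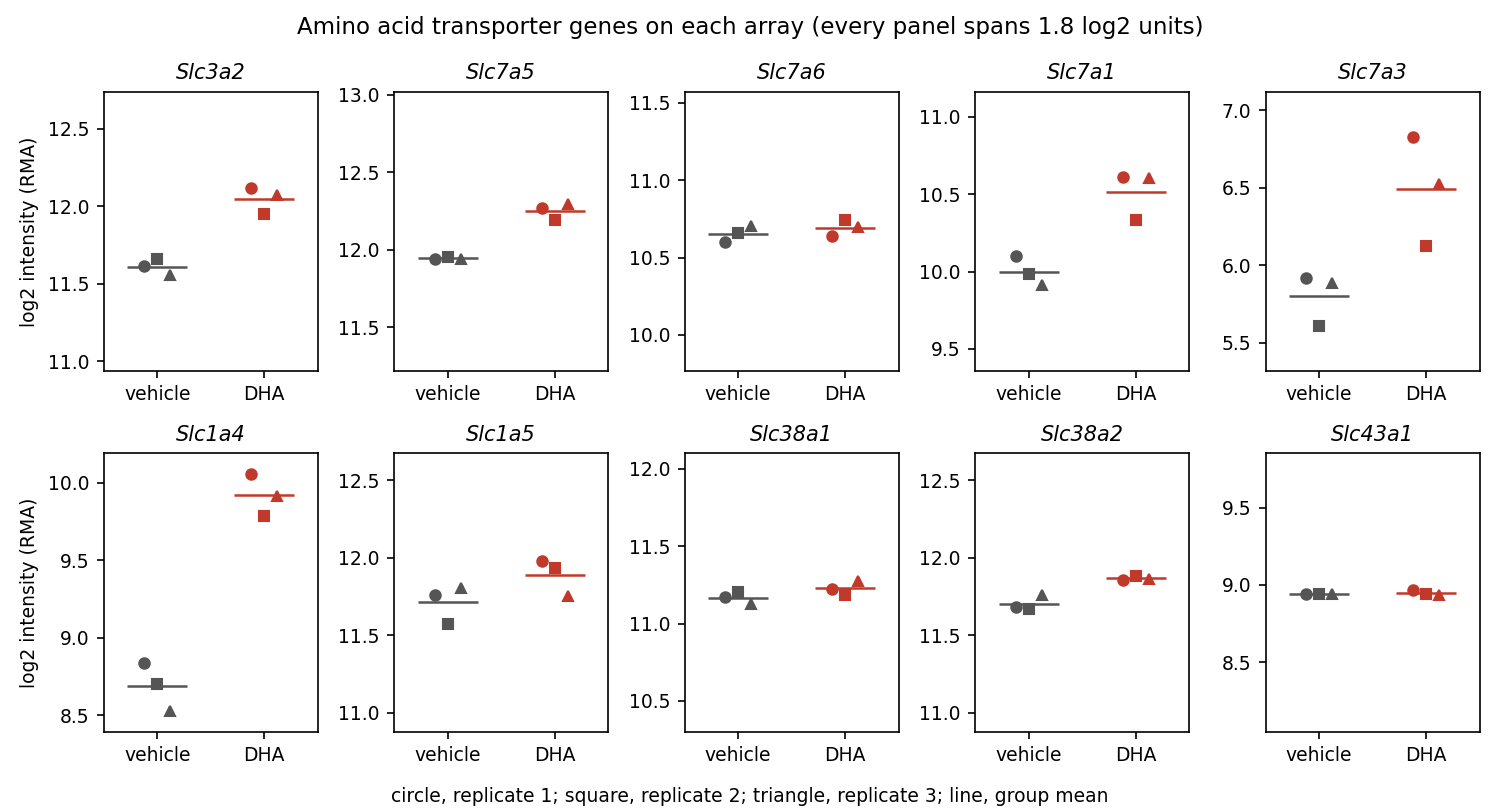
Log2 intensity of each of the 10 transporter genes on each array, vehicle in grey and DHA in red, with a line at each group mean (3 arrays per group). Every panel spans the same number of log2 units, so the gap of 1.23 in Slc1a4 can be set beside the 0.0047 in Slc43a1, and the DHA points lie above all vehicle points in 6 panels.

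Slc3a2 encodes 4F2hc (CD98), the heavy chain that brings SLC7 light chains to the cell surface. It measured 11.62, 11.66 and 11.56 with vehicle and 12.12, 11.95 and 12.07 with DHA. The groups were apart by 0.29 at their nearest arrays. Group means were 11.61 ± 0.052 and 12.05 ± 0.086 (mean ± SD of 3 arrays each), a difference of 0.44 on the log2 scale (95% interval 0.29 to 0.58) that missed the threshold over all genes (limma adjusted p = 0.0660).

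Slc7a5 encodes LAT1, the light chain that carries leucine and other large neutral amino acids. Its vehicle arrays were nearly alike at 11.94, 11.96 and 11.94, and its DHA arrays read 12.27, 12.19 and 12.30. The groups were apart, with a log2 fold change of 0.30 (SE 0.047, 95% interval 0.19 to 0.42; limma adjusted p = 0.0915). Slc7a6 encodes y+LAT2, the light chain that exchanges cationic for neutral amino acids. It measured 10.60, 10.66 and 10.70 with vehicle and 10.64, 10.74 and 10.70 with DHA. These values overlapped, and the log2 fold change of 0.037 had a 95% interval of -0.087 to 0.16, which leaves out a difference as large as that of Slc7a5. Within arrays, Slc7a5 minus Slc7a6 was larger with DHA by 0.27 and Slc3a2 minus Slc7a6 by 0.40 on the log2 scale, with separate groups in both. Slc3a2 also differed by 0.13 beyond Slc7a5, again with separate groups.

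Further light chains of 4F2hc were named for that role after their values were seen. Slc7a7, which encodes y+LAT1, measured 7.004 ± 0.058 with vehicle and 7.28 ± 0.085 with DHA (mean ± SD of 3 arrays each), a difference of 0.28 at a limma adjusted p of 0.165. Slc7a8 (LAT2) had 0.076 and Slc7a10 (Asc-1) -0.0082, with 6-array means of 4.76 and 6.13. Slc7a11, the cystine and glutamate exchanger xCT, lay under the filter at 3.50 with vehicle and 3.45 with DHA.

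The cationic amino acid transporters CAT1 and CAT3, which carry arginine and lysine, are encoded by Slc7a1 and Slc7a3. Slc7a1 measured 10.10, 9.99 and 9.91 with vehicle and 10.61, 10.34 and 10.61 with DHA. All DHA arrays were above all vehicle arrays, and the 1.43-fold difference (95% interval 1.23 to 1.66) missed the threshold (limma adjusted p = 0.120). Slc7a3 was the member nearest the filter on dim genes. It measured 5.92, 5.61 and 5.89 with vehicle and 6.83, 6.12 and 6.53 with DHA. Groups were again apart, but the DHA arrays were spread widely (SD 0.35), and the difference of 0.69 had a 95% interval of 0.26 to 1.11 (limma adjusted p = 0.223). In both genes DHA replicate 2 was the lowest of its group. The within-array difference between them overlapped between the groups (a shift of 0.17).

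Slc38a1 and Slc38a2 encode SNAT1 and SNAT2, which take up glutamine, alanine and other small neutral amino acids with sodium, and RefSeq lists them as neighbours on chromosome 15. SNAT2 is known to be induced when amino acids are scarce. Slc38a2 measured 11.68, 11.67 and 11.76 with vehicle and 11.86, 11.88 and 11.86 with DHA. The groups were apart by 0.10, with a log2 fold change of 0.17 (SE 0.046, 95% interval 0.055 to 0.28; limma adjusted p = 0.250). Slc38a1 measured 11.17, 11.20 and 11.13 with vehicle and 11.22, 11.19 and 11.27 with DHA. Its groups overlapped, with a log2 fold change of 0.061 (95% interval -0.054 to 0.18). The within-array difference of the neighbours shifted by 0.10 with overlapping groups.

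Slc43a1 encodes LAT3, a uniporter of branched-chain amino acids that needs neither sodium nor an exchanged substrate. It read 8.94 on each vehicle array and 8.97, 8.94 and 8.94 with DHA. Its log2 fold change was 0.0047 (95% interval -0.093 to 0.10). The deposited value was identical on 4 of its 6 arrays to 5 decimals, which 661 of 15526 tested genes (4.26%) showed as well. The SD of its vehicle arrays was therefore 0, and the interval rests on limma's moderated variance.

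**Figure D2:**
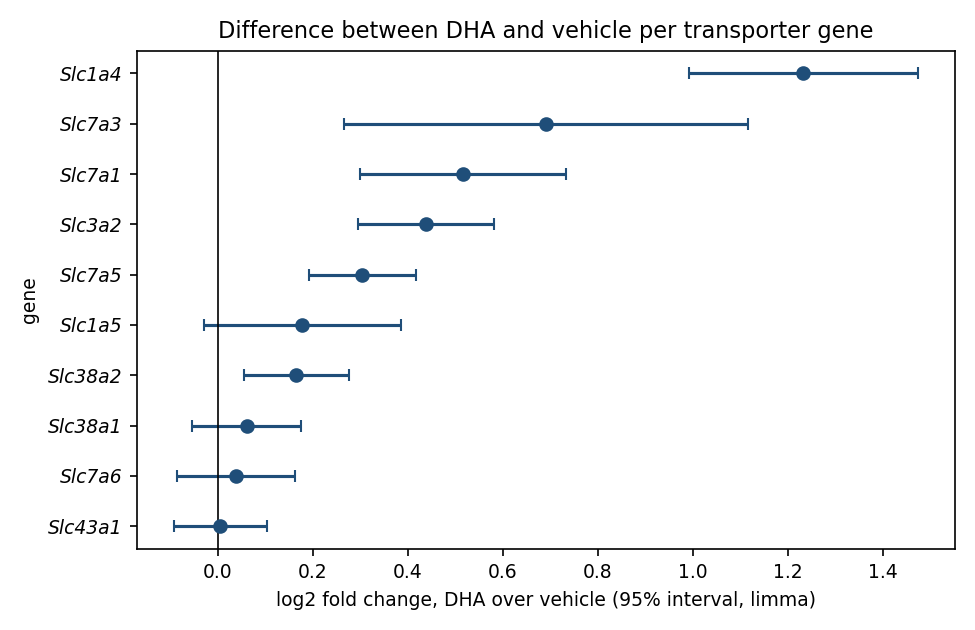
Log2 fold change of DHA over vehicle for each transporter gene, with its 95% interval from limma (3 arrays per group), ordered by size. Intervals of Slc1a5, Slc38a1, Slc7a6 and Slc43a1 include 0, and Slc1a4 lies above the others at 1.23.

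Of the 10 genes, all 10 passed the filter on dim genes, 1 was called higher (Slc1a4; 0.0837% of all tested genes were) and 0 were called lower (0.00644% of all). At an unadjusted limma p under 0.05, 6 were higher (5.94% of all tested genes) and 0 lower (6.08%). The same 6 had groups that did not overlap, with DHA higher (7.64% of all), and 0 had separate groups with DHA lower (8.19%). They are Slc1a4, Slc3a2, Slc7a1, Slc7a3, Slc7a5 and Slc38a2. All 10 log2 fold changes were above 0, as were 51.2% over all tested genes. Their median was 0.24, against 0.0027 over all tested genes. Since the members were chosen with this contrast in view, nothing is read from these counts. At the edge of the call, Slc1a4 stood inside and Slc3a2 (adjusted p = 0.0660, limma) was the nearest member outside.

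The number of called members changed with the processing, as did the number called over all genes. Slc3a2 was also called with a filter at the 50th percentile, with quantile normalization, with trend and robust moderation and with a term for a title code that vehicle replicate 3 and DHA replicate 2 share (adjusted p between 0.0351 and 0.0452, limma). Slc7a5 was called with trend and robust moderation (adjusted p = 0.0351) and Slc7a1 with the title-code term (adjusted p = 0.0476). Over its 16 alternatives Slc3a2 ranged from 0.40 to 0.49 on the log2 scale, Slc7a5 from 0.28 to 0.33 and Slc7a1 from 0.47 to 0.61. Slc7a3 ranged from 0.52 to 0.92 and Slc1a5 from 0.11 to 0.34, the widest for their size among the 6 largest differences. Slc7a6 ranged from 0.0099 to 0.064 and Slc38a1 from 0.037 to 0.081, with neither called in any of them.

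**Figure D3:**
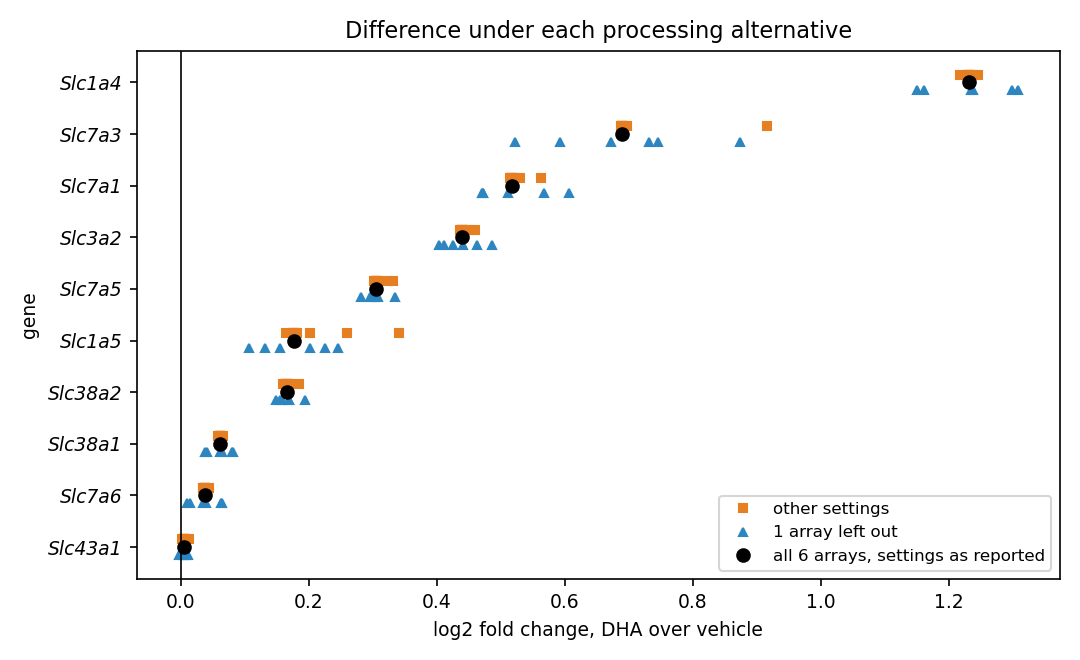
Log2 fold change of each transporter gene under every processing alternative. Triangles leave out 1 array, squares change another setting and circles are the values as reported, and Slc1a4 stays between 1.15 and 1.31 while Slc43a1 crosses 0.

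The DHA arrays were not equally far from vehicle. Each gene was centred on its mean over the 6 arrays, and these centred values were averaged over the 10 genes. The average was -0.15, -0.21 and -0.19 on vehicle arrays 1 to 3 and 0.25, 0.10 and 0.19 on DHA arrays 1 to 3. DHA replicate 1 was the highest of its group in 6 of the 10 genes and DHA replicate 2 the lowest in 6. Regulators of the amino acid response, averaged over 12 genes, ordered the DHA arrays with the same array lowest (8.23, 8.02 and 8.26, against 7.61, 7.49 and 7.51 with vehicle). Vehicle replicate 3 and DHA replicate 2 differed by 1.26 in Slc1a4, 0.42 in Slc7a1 and 0.24 in Slc7a3. The SD within a group had a median over the members of 0.052 with vehicle and 0.070 with DHA, with 0.079 and 0.074 over all tested genes.

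**Figure D4:**
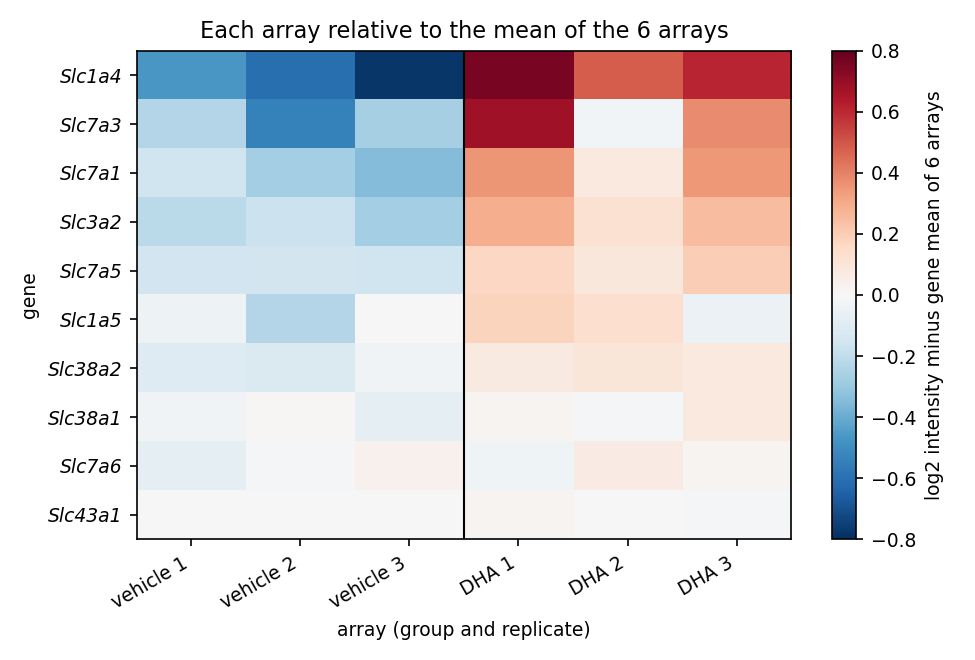
Log2 intensity of each transporter gene on each array minus the mean of that gene over the 6 arrays, in red above and in blue below. The colour is deepest in Slc1a4, and within the DHA group the column of replicate 2 is palest for Slc1a4, Slc7a3, Slc7a1 and Slc3a2.

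Genes whose 6 values followed the average of the 10 transporters most closely were Cdt1, a replication licensing factor (Pearson r = 0.998), Arl14ep (0.998), Lrrc8d, a subunit of the volume-regulated anion channel (0.996), and the transcription factors Atf3 (0.996) and Jdp2 (0.995). These are correlations over 6 arrays that fall into 2 groups, picked as the highest of all tested non-members, and describe only that likeness. The genes were not scaled before averaging, so members with large differences, such as Slc1a4 (1.23), weighed more than those with small ones, such as Slc43a1 (0.0047). Cdt1 had a log2 fold change of 0.39, Arl14ep of 0.93, Lrrc8d of 0.58 and Jdp2 of 1.02.

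Other transporters of amino acids at the plasma membrane had log2 fold changes from -0.24 to 0.28. The list leaves out the members and was drawn up with earlier results of these data known. Of 29 listed genes 18 were tested and 10 lay under the filter, with 6-array means of 3.14 to 4.36. Limma called 0 of the 18 in either direction. At an unadjusted p under 0.05 there was 1 higher (5.94% of all tested genes were) and 1 lower (6.08% of all). The higher one was Slc7a7, given above. The lower one was Slc6a6, the taurine transporter, which measured 9.80 ± 0.078 with vehicle and 9.56 ± 0.023 with DHA (mean ± SD of 3 arrays each), a difference of -0.24 at a limma adjusted p of 0.171. The glutamate transporter gene Slc1a2 (0.12) and the proton-coupled transporter gene Slc36a2 (0.11) came next by p. The median log2 fold change was 0.023, and it was -0.021 without vehicle replicate 1. Of its 18 tested genes 15 had a 6-array mean under the median of all tested genes (7.02 on the log2 scale), as had 1 of the 10 transporters (Slc7a3); the part of signal level in this contrast was not tested.

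Transporters of lysosomes and mitochondria went both ways. Of 18 tested, 0 were called by limma, with a median of -0.0067. At an unadjusted p under 0.05, 4 were higher (5.94% of all tested genes) and 4 lower (6.08%). The higher ones include Slc17a9 (0.37), which encodes a nucleotide transporter and was named for that after its value was seen. Slc38a7, which encodes the lysosomal glutamine transporter SNAT7, measured 7.99 ± 0.22 with vehicle and 8.63 ± 0.15 with DHA (mean ± SD of 3 arrays each), a difference of 0.64 at a limma adjusted p of 0.126. The mitochondrial carriers had negative values: -0.31 for the ornithine carrier gene Slc25a15 (limma adjusted p = 0.126), -0.19 for Slc25a44, a carrier of branched-chain amino acids, and -0.23 for Slc25a12, an aspartate and glutamate carrier. Groups were separate in these 4 genes.

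**Figure D5:**
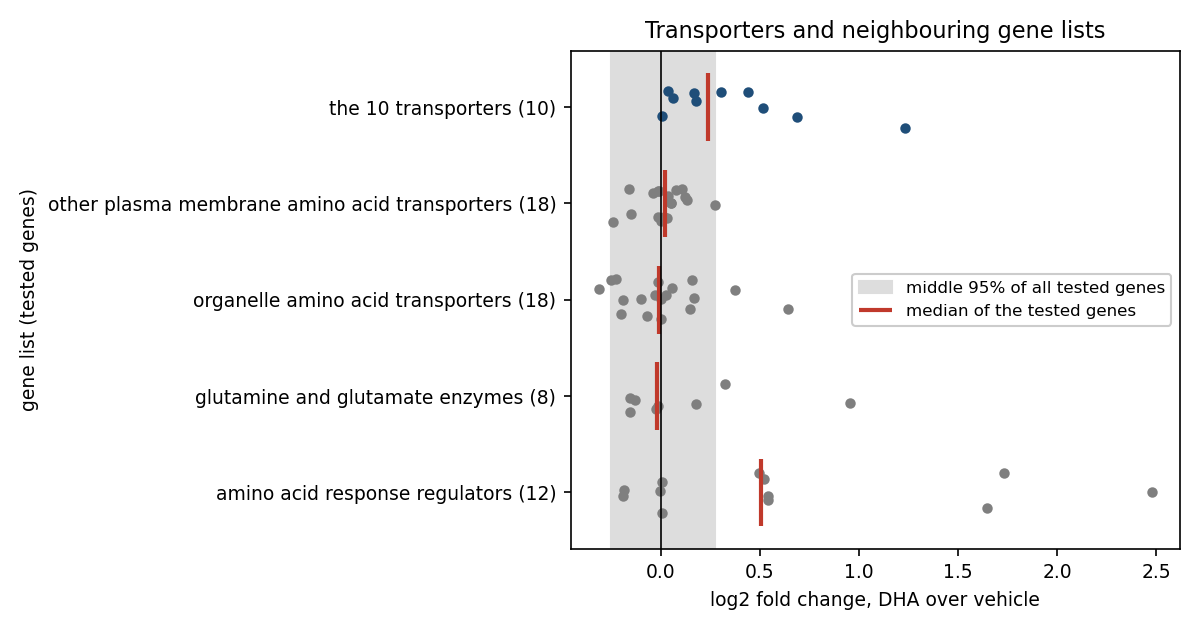
Log2 fold change of each tested gene in the 10 transporters and 4 neighbouring gene lists, with a red line at the median of each list and a grey band for the middle 95% of all 15526 tested genes (-0.25 to 0.27). Of the 10 transporters, 5 lie to the right of the band, and 1 of 18 other plasma membrane transporters does. The 10 were chosen with this contrast in view and the 18 are others of that kind, so nothing is read from these counts.

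Among 272 tested genes of the SLC families, Slc1a4 had the largest positive log2 fold change, Slc7a3 the second, Slc38a7 the third, Slc7a1 the fourth and Slc3a2 the fifth. Slc7a5 stood at rank 9, Slc1a5 at 20, Slc38a2 at 22, Slc38a1 at 77, Slc7a6 at 99 and Slc43a1 at 136. Over the 262 that are no members the median was -0.00018. Limma called 0 of these. At an unadjusted p under 0.05, 10 of the 262 were higher (5.94% of all tested genes were) and 24 lower (6.08% of all).

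Enzymes that use what these transporters bring in differed from gene to gene. Of 8 tested genes for glutamine and glutamate metabolism 0 were called. At an unadjusted p under 0.05, 3 were higher (5.94% of all tested genes) and 1 lower (6.08%). Gpt2, the mitochondrial alanine transaminase, measured 8.36 ± 0.058 with vehicle and 9.31 ± 0.29 with DHA (mean ± SD of 3 arrays each) at a limma adjusted p of 0.0703. Asparagine synthetase (Asns) had a log2 fold change of 0.32, the aspartate transaminase gene Got1 0.18 and glutamine synthetase (Glul) -0.16. The sodium pump, which maintains the gradient that the SLC38 proteins use, was represented by 3 beta subunit genes, with 0 called. Of these, 1 was lower at an unadjusted p under 0.05 (6.08% of all tested genes were). Atp1b3 had a log2 fold change of -0.17, Atp1b2 of 0.030 and Atp1b1 of -0.00033. Genes for its catalytic subunits were not analysed here.

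Of the 12 regulators of the amino acid response, limma called 2 higher (0.0837% of all tested genes were) and 0 lower (0.00644% of all). At an unadjusted p under 0.05, 7 were higher (5.94% of all tested genes) and 2 lower (6.08%). This list was chosen with earlier results of these data known, so nothing is read from its counts. Ddit3, which encodes CHOP, had a difference of 2.48 on the log2 scale and Atf3 one of 1.73 (adjusted p = 0.0225 and 0.0355 by limma). Without any 1 of the vehicle arrays, without DHA replicate 1 or 3, and without the 2 samples that share a title code, limma called 0 genes on the whole array, so these calls were lost there too. Trib3, a pseudokinase induced by ATF4 and CHOP, had 1.65 and Atf4 itself 0.50. Eif2ak4, which encodes GCN2, the eIF2α kinase that senses uncharged tRNA, had -0.0027. The kinases Eif2ak2 (PKR) and Eif2ak3 (PERK) had -0.19 and -0.18, and Eif2ak1 (HRI, the heme-regulated kinase) 0.0048. The 4 kinases were named for this role after their values were seen.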

How the data were processed

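Log2 intensities, 1 per probe set and array, were deposited by the authors. RMA and Partek version 6.6 made them, per the submitters' processing notes, and the sources used here do not give their settings or genome build. As usually run, RMA equalises arrays, tends to understate changes of dim genes, and cannot show a change in total RNA. Saturation of the brightest probe sets was not tested. With 3 arrays per group, their number limits the precision.

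The annotation gave 1 symbol for 23521 of 41345 probe sets, several for 1814 and none for 16010. Symbols were updated through RefSeq (GRCm38.p6), which matched 23328. The members had 11 probe sets. The brightest of each gene was used, and 15526 genes at or above the 30th percentile (4.52) were tested. Samples were grouped by the agent in the labels, and replicate numbers are in accession order.

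The groups were compared in R 4.3.3 with limma, version 3.58.1 (two-sided, Benjamini-Hochberg adjustment over all tested genes, calls at or under 0.05). SE and 95% intervals are limma's, unadjusted for the number of genes. The fit was also run on simulated data with independent normal noise for each gene and array. The outcome is not given here, and no call rests on it. Members, lists and alternatives were chosen with earlier results of these data known. The naming rule took all members, called genes and up to 4 genes of smallest p per other list, and the 5 genes most like the members. Planned protein comparisons were not run.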

Additional observations from a re-analysis of the deposited data

How the results depend on the processing

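No paired analysis was possible because the groups have a single title number in common (vehicle replicate 3 and DHA replicate 2), and replicates were numbered by accession. The count of members called higher, 1, ranged from 0 to 1 when single arrays were left out. It was 0 without the 2 samples that share a title code, 2 with a filter at the 50th percentile, 2 with quantile normalization, 3 with trend and robust moderation, 3 with the title-code term and 3 at an adjusted p of 0.1. Calls over all genes moved as well, so nothing is read from these counts. Such calls were 14 of 15526 genes as reported, 24 without DHA replicate 2 and 0 without any other single array. Without the 2 title-code samples there were 0, and with the filter at the 50th percentile 62 of 11090. Of 15526 genes, limma called 63 with quantile normalization, 62 with trend and robust moderation and 41 with the title-code term. The number at 0.1 is not given here. Leaving out samples or raising the filter changes how many arrays or genes enter the fit; for the other settings the cause was not tested. The Slc1a4 log2 fold change was 1.22 without those 2 samples, where it lost its call (limma adjusted p = 0.241). Slc1a4 was also not called in the fit over all probe sets (limma adjusted p = 0.0649). The log2 fold change of Slc43a1 was -0.0037 without DHA replicate 1 and ranged from -0.0037 to 0.011 on leaving out 1 array. No other member changed sign in any of its 16 alternatives. Where groups are separate, leaving out arrays cannot turn a sign. The members' median, 0.24, ranged from 0.23 to 0.26 when single arrays were left out, and was 0.28 with the mean of probe sets and 0.32 with the probe set of highest variance, each of which also changes which genes pass the filter and how Slc1a5 is represented. The median over all tested genes stayed between -0.0055 and 0.0080 in every setting.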

Other observations

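Outside amino acid transport, the 5 solute carriers with the smallest p were all lower with DHA, and they were chosen after their values were seen. Slc39a10, which encodes a zinc importer, differed by -0.48 on the log2 scale (SE 0.072) at a limma adjusted p of 0.0848. The others were Slc35g1 (-0.39), the thiamine transporter gene Slc19a2 (-0.49), the mitochondrial carrier gene Slc25a16 (-0.28) and the zinc transporter gene Slc39a1 (-0.29), at limma adjusted p-values of 0.107, 0.126, 0.126 and 0.139. None of them passed over all genes, and the groups of each were separate with DHA lower.

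Among markers of other cell types, Pecam1 had the smallest p, at 9.34 ± 0.039 with vehicle and 9.52 ± 0.037 with DHA (mean ± SD of 3 arrays each), a difference of 0.18 at a limma adjusted p of 0.220. B cells also express this gene. Of the B-cell precursor genes, Rag2 was at 7.72 ± 0.17 and 7.19 ± 0.27 (limma adjusted p = 0.253), Cd24a had a log2 fold change of -0.16, Igll1 of -0.12 and Ebf1 of 0.13. Of 13 tested B-cell precursor genes 0 were called by limma. At an unadjusted p under 0.05, 3 were lower (6.08% of all tested genes were) and 0 higher (5.94% of all). Of the 13, 7 had a log2 fold change above 0, and the median was 0.010.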
